A study of Mus musculus with 4 samples.

Results

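The genes described here encode the proteins that take up glucose, split it to pyruvate, reduce pyruvate to lactate and export it, or pass pyruvate into the mitochondria. They were chosen by name, as 33 genes of glucose transporters, glycolytic isoenzymes, lactate dehydrogenases, lactate exporters, pyruvate dehydrogenase and its kinases, with the gluconeogenic enzyme gene *Fbp1* and the transcription factor gene *Hif1a*. A gene counted as measured when a probe set named it and no other gene, and the probe set with the highest mean stood for a gene with several. This held for 30 of the 33 genes, out of 19938 genes measured in all. *Gapdh* is read only by probe sets that name it together with other genes, and *Gpi1* and *Eno1* were not analysed here.

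RNA came from Ly6G+ cells of the bone marrow, a population of myeloid-derived suppressor cells (MDSCs), and was hybridised to 4 arrays. The lal+/+ arrays (n = 2) held RNA of wild type mice, and the lal-/- arrays (n = 2) RNA of mice that lack lysosomal acid lipase (LAL), the enzyme that releases cholesterol and fatty acids from lipids taken into the lysosome. All mice were 5 months old, on an FVB/N background after 10 generations of back-crossing, and the knockout is of the whole animal and not of the MDSCs alone. Selection is given differently by the sources: the labels call the sorted cells CD11b+ Gr-1+ and list NuGEN reagents, whereas the methods of the study describe magnetic selection for Ly6G and an Affymetrix amplification kit. No source says whether the arrays of a genotype held separate animals, so the p-values speak of the spread among these arrays alone, and that spread may be technical.

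Glycolysis is the cytosolic route from glucose to pyruvate. Hexokinase traps glucose in the cell as glucose 6-phosphate, phosphofructokinase commits it to the pathway, and the later steps return ATP and NADH. Pyruvate is then either reduced to lactate, which regenerates the NAD+ that glycolysis consumes, or oxidised to acetyl-CoA by the pyruvate dehydrogenase complex, which the kinases of the Pdk family switch off by phosphorylation. Most steps are served by isoenzymes from different genes that tissues use in different proportions. Neutrophils and their precursors are known for deriving much of their ATP from glycolysis, and the hypoxia-inducible factor HIF-1, whose alpha subunit *Hif1a* encodes, is a known activator of many of these genes.

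The arrays were checked against their labels with *Lipa*, the gene of LAL, which read 9.50 and 9.05 in lal+/+ and 7.37 and 7.49 in lal-/- cells on the log2 scale. It fell by 1.85 (standard error, SE, 0.17, adjusted p = 4.17e-04 from limma), although no source used here places its probes inside or outside the disrupted exons. Of the defining surface genes of neutrophils, *Ly6g* read 10.19 and 9.80 in lal+/+ and 12.91 and 12.84 in lal-/- cells, and was detected on all arrays. Deposited medians of the arrays were between 6.15 and 6.36 and differed by 0.208, so the arrays were quantile normalized, and all levels below are log2 values on that scale. The level of silent genes was taken from 1035 probe sets of olfactory receptor genes, whose 95th percentile was 6.79 in lal+/+ and 6.29 in lal-/- cells. Levels of different genes come from different probes and were not compared, so that only changes are set side by side.

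Genes counted as higher or lower in lal-/- cells where the adjusted p was under 0.05 and the change at least 2-fold. Of the 30 measured genes 13 were higher, 0 were lower and 17 did not pass, beside 7.56% higher and 3.24% lower among all genes tested. At an adjusted p under 0.05 and any fold, 18 of 30 were higher and 0 lower, beside 19.8% and 9.85% of all genes. Both lal-/- arrays lay above both lal+/+ arrays for 19 of the 30 genes and below them for 2, beside 41.6% and 24.1% of all genes. The median log2 change was 0.73, against 0.08 over all genes tested. The genes were listed with earlier results of these arrays known, so that these counts describe the list and are not independent evidence of its direction.

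The 13 higher genes were *Slc2a3*, *Hk2*, *Hk3*, *Pfkfb4*, *Aldoa*, *Tpi1*, *Pgk1*, *Pgam1*, *Ldha*, *Ldhb*, *Slc16a3*, *Pdk3* and *Fbp1*. Their changes ran from 2.08-fold for *Slc16a3* to 10.2-fold for *Fbp1*, with standard errors of 0.12 to 0.16 on the log2 scale and adjusted p from 3.01e-05 to 0.00135. In none of the 13 did the arrays of the genotypes overlap, which nearly follows from the thresholds and adds no support. By role, 8 of 17 measured genes of glucose transport and glycolysis were higher (median log2 change 0.92), beside 7.56% of all genes. So were 3 of 4 genes of lactate formation and export (changes of 0.14 to 1.56). Of 7 genes of pyruvate dehydrogenase and its kinases (median 0.10) only 1, *Pdk3*, was higher. A further 3 of these 7 lay in the range of silent genes in both genotypes. These shares were not tested against each other. With arrays shifted to a common median and not quantile normalized, 16 of the 30 genes were higher, beside 13.1% of all genes. With the values as deposited 15 were higher, beside 10.1% of all genes, and 0 were lower in each. A linear model without moderated variances, left with 2 residual degrees of freedom, called 0 of the 30 genes and 0 of all genes. An unadjusted p under 0.05 was reached in it by 17 of the 30, beside 5691 of all 19938 genes.

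**Figure D1:**
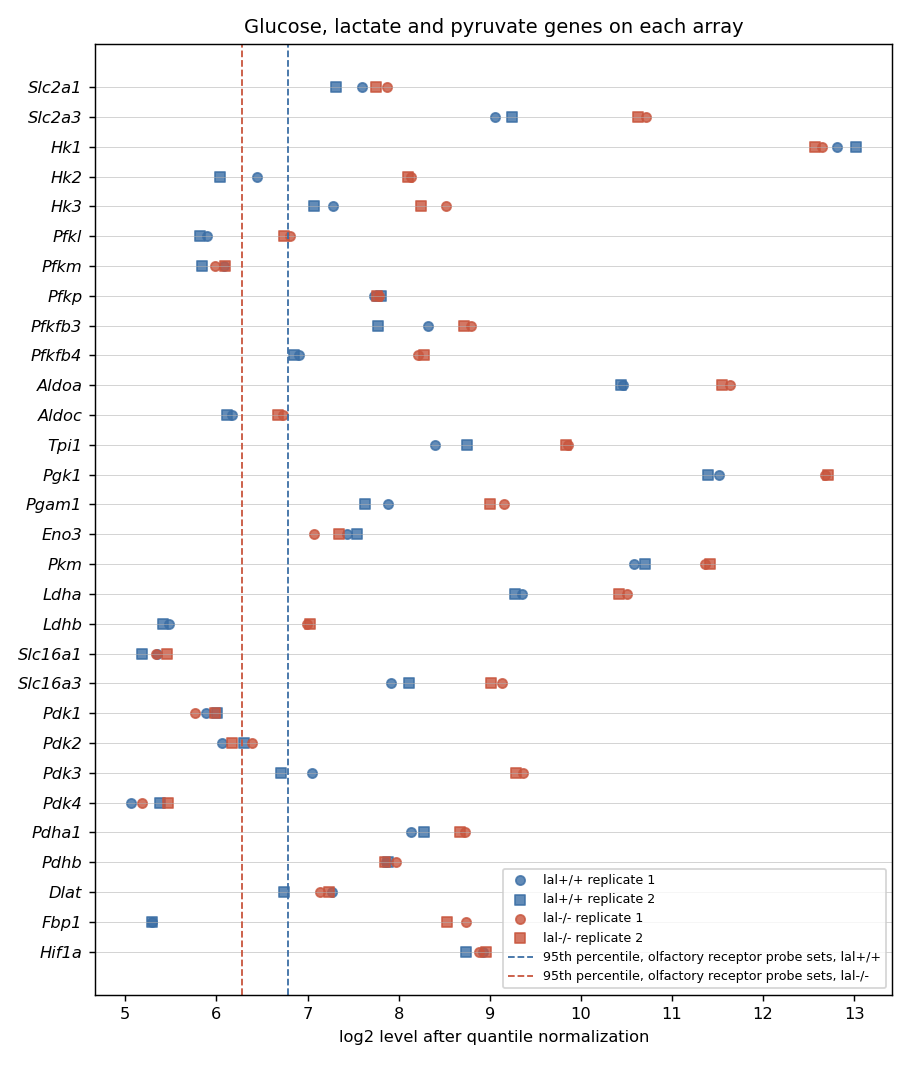
Log2 level of the 30 measured genes, plotted for every array after quantile normalization in order of the pathway, with colour for the genotype and shape for the replicate. Dashed lines mark the 95th percentile of silent genes (6.79 in lal+/+ and 6.29 in lal-/- cells). The red points lie to the right of the blue ones without overlap for 19 of the 30 genes, beside 41.6% of all genes. They lie to the left for 2, beside 24.1% of all genes.

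Glucose enters through facilitative transporters. *Slc2a3* encodes GLUT3, a transporter of high affinity that is known from neurons and white blood cells. It read 9.06 and 9.24 in lal+/+ and 10.72 and 10.63 in lal-/- cells, a 2.87-fold rise (log2 change 1.52, SE 0.13, adjusted p = 2.96e-04 from limma). *Slc2a1* encodes GLUT1, the transporter found in most tissues, and read 7.60 and 7.31 in lal+/+ and 7.87 and 7.75 in lal-/- cells. Its lal-/- arrays were also the higher ones, but the log2 change of 0.36 (SE 0.15, adjusted p = 0.112) did not pass the test. It was 0.67 at a common median (adjusted p = 0.0086) and 0.49 as deposited (adjusted p = 0.034), under 2-fold in each. The change of *Slc2a3* exceeded that of *Slc2a1* by 1.16, and by 0.91 to 1.42 over the 4 pairs of a lal-/- with a lal+/+ array.

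Differences between isoenzymes in their change are given with that range over pairs of arrays and without a p, since an exact two-sided permutation test of 2 arrays against 2 cannot go below 0.333. The range shows how far single arrays move a difference, and it is not a confidence interval.

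Hexokinases carry out the first step. *Hk2* encodes the inducible isoenzyme that binds to mitochondria, and read 6.45 and 6.04 in lal+/+ and 8.14 and 8.10 in lal-/- cells. This was a 3.67-fold rise (log2 change 1.88, SE 0.16, adjusted p = 3.13e-04 from limma), from a lal+/+ level within the range of silent genes, so that the fold may be understated. *Hk3* encodes an isoenzyme known from myeloid cells, and read 7.28 and 7.07 against 8.52 and 8.25, a 2.31-fold rise (log2 change 1.21, adjusted p = 0.00132). The change of *Hk2* exceeded that of *Hk3* by 0.67 (0.46 to 0.88 over the pairs of arrays).

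The result for *Hk1*, the gene of the hexokinase of most tissues, depended on the probe set. Its brightest probe set, which stands for the gene by the rule, read 12.81 and 13.02 in lal+/+ and 12.65 and 12.57 in lal-/- cells, a log2 change of -0.31 (SE 0.13, adjusted p = 0.126 from limma). This probe set is annotated by 1 accession only. A further 16 probe sets name *Hk1* together with *Rpl17*, a gene of the large ribosomal subunit, and they changed by -0.53 to -0.20 (median -0.28) at levels of 11.80 to 13.22, the range in which the brightest *Hk1* probe set lay too. The other probe set of *Hk1*, with 8 accessions, read 6.60 and 6.04 in lal+/+ and 8.07 and 7.91 in lal-/- cells, a log2 change of 1.67 (SE 0.20, adjusted p = 0.00103). On this probe set *Hk1* would count as higher, and 14 of the 30 genes instead of 13. Which transcripts the brightest probe set detects was not tested.

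Phosphofructokinase had no called member. *Pfkl*, of the liver-type subunit, read 5.89 and 5.82 in lal+/+ and 6.81 and 6.74 in lal-/- cells. The lal-/- arrays lay above the others with a log2 change of 0.92 (SE 0.12, adjusted p = 0.00169 from limma), a 1.89-fold difference that missed the fold threshold. Its lal+/+ level was within the range of silent genes, so that this fold may be understated. *Pfkp*, of the platelet-type subunit, read 7.73 and 7.81 against 7.79 and 7.77, a log2 change of 0.01 (SE 0.12, adjusted p = 0.973). *Pfkm*, of the muscle-type subunit, lay in the range of silent genes in both genotypes, between 5.84 and 6.10, so that a change of it cannot be judged from this probe set. The measured change of *Pfkl* exceeded that of *Pfkp* by 0.91 (0.81 to 1.01), and by 0.56 with arrays shifted to a common median, with the same limit on the change of *Pfkl*.

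Phosphofructokinase is activated by fructose 2,6-bisphosphate, which the bifunctional enzymes of the Pfkfb family make and remove. *Pfkfb4* read 6.91 and 6.86 in lal+/+ and 8.21 and 8.28 in lal-/- cells, a 2.57-fold rise (log2 change 1.36, SE 0.12, adjusted p = 3.34e-04 from limma). *Pfkfb3*, whose product has the highest kinase activity of the family relative to its phosphatase activity, read 8.32 and 7.77 against 8.79 and 8.72. Its log2 change of 0.71 (SE 0.19, adjusted p = 0.0315) was below the fold threshold, and its lal+/+ arrays lay further apart than the lal-/- arrays. Whether *Pfkfb3* passed depended on the scaling, since its log2 change was 1.19 at a common median and 1.01 as deposited, where it passed. With the adjustment taken over all probe sets its adjusted p from limma was 0.0794. Its log2 change was 0.99 without lal+/+ replicate 1 and 0.43 without lal+/+ replicate 2.

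Aldolase and triosephosphate isomerase, which follow, each had a higher gene. *Aldoa*, of the aldolase of muscle and most other cells, read 10.47 and 10.44 in lal+/+ and 11.63 and 11.55 in lal-/- cells, a 2.20-fold rise (log2 change 1.14, adjusted p = 6.70e-04 from limma). *Aldoc*, of the brain-type aldolase, read 6.17 and 6.11 against 6.73 and 6.68, and its log2 change of 0.57 (adjusted p = 0.0122) missed the fold threshold. The change of *Aldoa* exceeded that of *Aldoc* by 0.57 (0.54 to 0.60) after quantile normalization and by 1.05 at a common median and as deposited, although *Aldoc* started within the range of silent genes, where a change can be compressed. *Tpi1*, of triosephosphate isomerase, read 8.40 and 8.75 against 9.86 and 9.84, a 2.42-fold rise (log2 change 1.28, adjusted p = 0.00110). All 4 lal-/- values of *Aldoa* and *Tpi1* lay above their lal+/+ values.

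*Gapdh*, of the dehydrogenase that makes the NADH of glycolysis, has many processed copies in the genome, and no probe set named it alone. The 25 probe sets that name it with other genes, which hold 20 distinct sets of values, changed by 0.28 to 1.13 on the log2 scale. Their median was 0.79, or 1.73-fold. An adjusted p under 0.05, here taken over all probe sets of the array, was reached by 24 of the 25, and 11 were also at least 2-fold higher. Levels ran from 10.48 to 12.65 in lal+/+ and from 10.76 to 13.45 in lal-/- cells. Copies and parent gene cannot be told apart on these probe sets.

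*Pgk1*, of the kinase that returns the first ATP, read 11.52 and 11.39 in lal+/+ and 12.68 and 12.71 in lal-/- cells, a 2.36-fold rise (log2 change 1.24, adjusted p = 5.32e-04 from limma). *Pgam1*, of phosphoglycerate mutase, read 7.88 and 7.63 against 9.16 and 9.01, a 2.51-fold rise (log2 change 1.33, adjusted p = 6.89e-04). *Pgam1* has 3 probe sets, of which the dimmest read 6.81 and 6.58 against 8.95 and 8.95, a larger log2 change of 2.26, while the others carry the same values. Of the enolases only *Eno3*, of the muscle form, was measured, and it read 7.44 and 7.54 against 7.08 and 7.34. Both lal-/- arrays were the lower ones, without passing the test (log2 change -0.28, adjusted p = 0.189).

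*Pkm* encodes the pyruvate kinases M1 and M2, which differ by an alternative exon and were not told apart here. It read 10.59 and 10.71 in lal+/+ and 11.36 and 11.42 in lal-/- cells, a 1.67-fold difference (log2 change 0.74, SE 0.12, adjusted p = 0.00444 from limma) that missed the fold threshold. The dimmer probe set of *Pkm* read 9.38 and 9.43 against 10.87 and 10.74, a log2 change of 1.40 (adjusted p = 3.23e-04). With another scaling *Pkm* passed on its brightest probe set as well, with a log2 change of 1.26 at a common median and of 1.08 as deposited. Counted by step, 8 of the 10 reactions from glucose to pyruvate had a measured gene. Of these 8, 5 had a gene that was higher, where 7.56% of all genes were. Phosphofructokinase, enolase and pyruvate kinase had none. Steps hold 1 to 3 listed genes, so their chances of a higher gene are unequal. The steps of *Gpi1* and *Gapdh* were not counted, although the probe sets that name *Gapdh* with other genes read higher in lal-/- cells. Enolase was read by *Eno3* alone, since *Eno1* was not analysed here, so a rise at this step is not excluded.

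**Figure D2:**
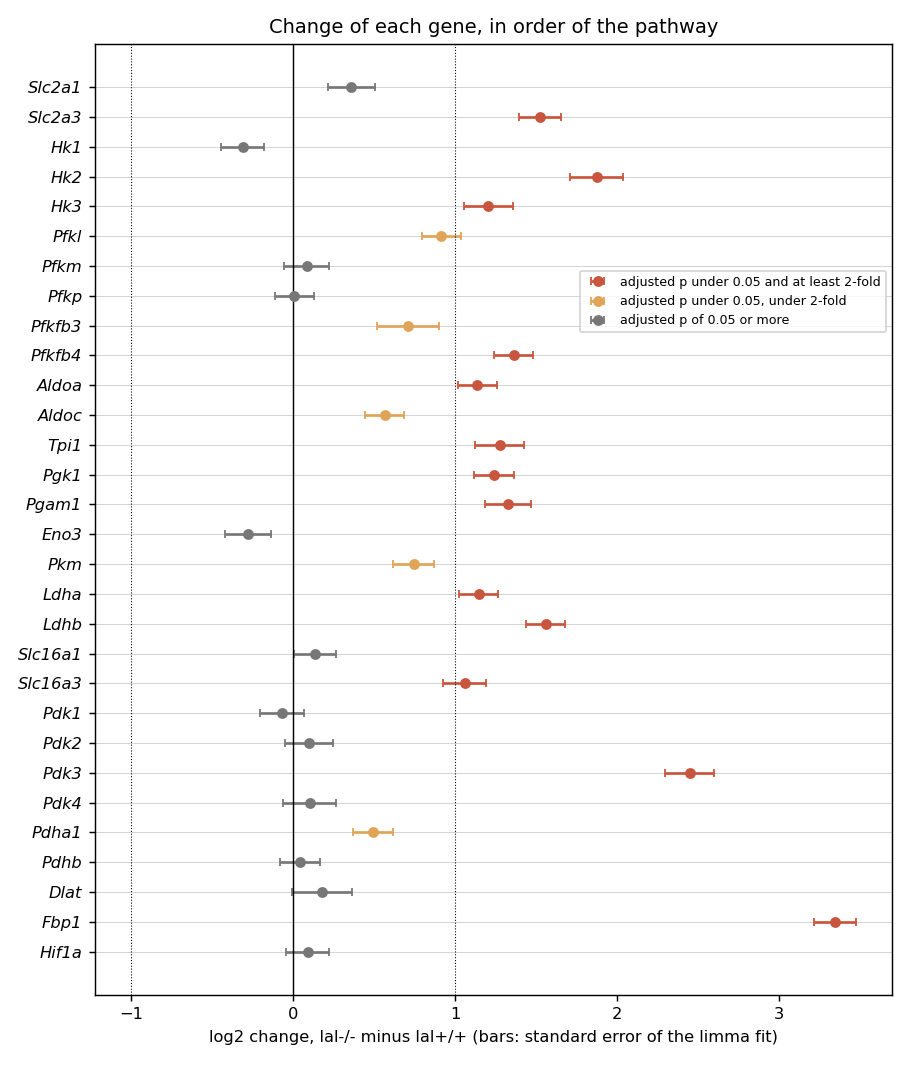
Log2 change of each of the 30 measured genes, lal-/- minus lal+/+, in order of the pathway, with bars for the standard error of the limma fit and dotted lines at a fold change of 2 in either direction. The 13 higher genes (red) lie right of the dotted line up to 3.35 for *Fbp1*, 5 genes (yellow) have an adjusted p under 0.05 below 2-fold, and 12 genes (grey) lie between -0.31 and 0.36.

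Lactate dehydrogenase is a tetramer of A and B subunits, of which A is known to favour the reduction of pyruvate and B the oxidation of lactate. *Ldha* read 9.35 and 9.28 in lal+/+ and 10.51 and 10.42 in lal-/- cells, a 2.21-fold rise (log2 change 1.15, SE 0.12, adjusted p = 6.84e-04 from limma). *Ldhb* read 5.48 and 5.42 against 6.99 and 7.03, a 2.94-fold rise (log2 change 1.56, SE 0.12, adjusted p = 2.09e-04) from a lal+/+ level within the range of silent genes. The second probe set of *Ldhb*, at 4.72 and 4.72 against 5.92 and 5.90, lay in the range of silent genes in both genotypes and was not judged. Which subunit changed more depended on the scaling: *Ldhb* exceeded *Ldha* by 0.41 (0.35 to 0.48) after quantile normalization, and the difference was -0.19 both at a common median and as deposited.

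Lactate leaves the cell through monocarboxylate transporters. *Slc16a3* encodes MCT4, the exporter of strongly glycolytic cells, and read 7.92 and 8.11 in lal+/+ and 9.13 and 9.02 in lal-/- cells. It was 2.08-fold higher (log2 change 1.06, SE 0.13, adjusted p = 0.00135 from limma), the smallest rise among the 13 called genes, and 0.96 without lal+/+ replicate 1, which is below the fold threshold. *Slc16a1*, of the widely expressed MCT1, lay in the range of silent genes in both genotypes, between 5.18 and 5.46, and its change (0.14) cannot be judged from this probe set.

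Of the kinases of pyruvate dehydrogenase, 1 of 4 had means above the range of silent genes and was higher. *Pdk3*, an isoenzyme that pyruvate inhibits little, read 7.05 and 6.71 in lal+/+ and 9.36 and 9.29 in lal-/- cells. *Pdk3* thus rose 5.46-fold (log2 change 2.45, SE 0.15, adjusted p = 1.06e-04 from limma). Its lal+/+ mean of 6.88 lay just above the 95th percentile of silent genes (6.79) and replicate 2 below it, so that this fold may be understated. *Pdk1* (log2 change -0.07), *Pdk2* (0.10) and *Pdk4* (0.10) read between 5.07 and 6.39, with overlapping genotypes. All 3 had means under the 95th percentile of silent genes in both genotypes, so that a change of them cannot be judged. The change of *Pdk3* was therefore not set against theirs.

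The complex that these kinases inhibit had no called gene. *Pdha1*, of the alpha subunit of its first enzyme, which is the part that the kinases phosphorylate, read 8.14 and 8.28 in lal+/+ and 8.73 and 8.68 in lal-/- cells. Its log2 change of 0.49 (SE 0.12, adjusted p = 0.0241 from limma) was under 2-fold, and reached 1.01 with arrays at a common median, where it passed. *Pdhb*, of the beta subunit, read 7.86 and 7.89 against 7.97 and 7.85 (log2 change 0.04, adjusted p = 0.843), and its change was 0.45 at a common median (adjusted p = 0.0351). *Dlat*, of the acetyltransferase core, read 7.27 and 6.74 against 7.14 and 7.23 (log2 change 0.18, adjusted p = 0.524), with both lal-/- arrays between the lal+/+ arrays.

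*Fbp1* encodes fructose 1,6-bisphosphatase, which runs the phosphofructokinase step in reverse in gluconeogenesis. It read 5.29 and 5.29 in lal+/+ and 8.74 and 8.54 in lal-/- cells, a 10.2-fold rise (log2 change 3.35, SE 0.13, adjusted p = 3.01e-05 from limma). This was the largest change among the 30 genes. The lal+/+ arrays lay close to the median of the silent genes (4.95), so that the fold is set by the background of the array and may be understated.

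*Hif1a* read 8.93 and 8.74 in lal+/+ and 8.88 and 8.96 in lal-/- cells. Its genotypes overlapped, and the log2 change of 0.09 (SE 0.13, adjusted p = 0.655 from limma) did not pass. It was 0.66 at a common median (adjusted p = 0.0106) and 0.48 as deposited (adjusted p = 0.0406), under 2-fold in each. HIF-1 alpha is known to be regulated mainly through the stability of the protein, which an array does not measure.

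**Figure D3:**
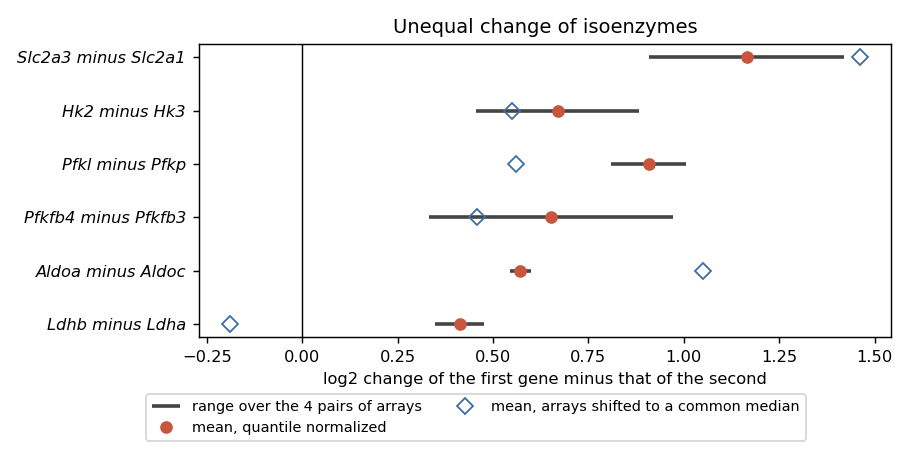
Difference in log2 change between isoenzymes (first gene minus second), with the mean after quantile normalization as a red point, its range over the 4 pairs of arrays as a bar, and the mean with arrays shifted to a common median as a blue diamond. *Slc2a3* stands 1.16 above *Slc2a1*, and *Ldhb* minus *Ldha* turns from 0.41 to -0.19 with the scaling. Pairs with *Hk1*, whose probe sets differ, and with genes in the range of silent genes in both genotypes are left out.

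Probe sets of a gene differed elsewhere too. *Pgk1* was read by 3 probe sets, of which a pair carries equal values and the other changed by 1.19, close to the 1.24 of the brightest. Each probe set of *Pgam1* and *Pkm* read higher in lal-/- cells, and those of *Hk1* differed in direction.

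**Figure D4:**
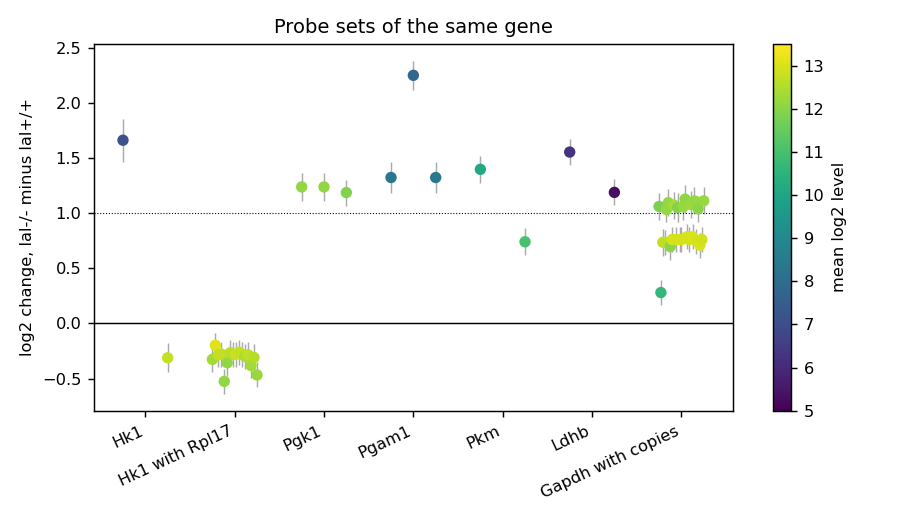
Log2 change of each probe set of 5 genes with several probe sets, of the 16 probe sets that name *Hk1* with *Rpl17*, and of the 25 that name *Gapdh* with other genes, with bars for the standard error and colour for the mean log2 level. The bright *Hk1* probe set (-0.31) lies with the *Rpl17* probe sets, and the dim *Hk1* probe set lies at 1.67.

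The promoters of the genes were searched for the core of the hypoxia response element, the sequence that HIF-1 is known to bind, spelled ACGTG or GCGTG, on both strands of the 250 bases before each start site in RefSeq (mouse build GRCm38.p6). CACGTG, the E-box that Myc and other factors bind, holds ACGTG on both of its strands, and both spellings hold a CpG. Promoters were found for 32 of the 33 genes, all but *Slc2a3*. The motif stood in 36 of their 46 promoters (78.3%), beside 46.2% of 19177 promoters of genes tested on the array and 38.6% of 32851 promoters in all. It stood in 12 of 15 promoters of genes that were higher (80%) and in 20 of 26 promoters of measured genes that were not (76.9%), so the shares of these groups were close. A match is no evidence of binding. The promoters of 6 of the higher genes are shown, of *Hk2*, *Pfkfb4*, *Ldha*, *Slc16a3*, *Pdk3* and *Fbp1*, because the first 4 are known as targets of HIF-1 and *Pdk3* and *Fbp1* had the largest changes. They are written 5′ to 3′ along the gene and end at the base before the start site, and capitals mark the motif, with CACGTG in full where it occurs.
Hk2, chr6:82774455-82774704, minus strand: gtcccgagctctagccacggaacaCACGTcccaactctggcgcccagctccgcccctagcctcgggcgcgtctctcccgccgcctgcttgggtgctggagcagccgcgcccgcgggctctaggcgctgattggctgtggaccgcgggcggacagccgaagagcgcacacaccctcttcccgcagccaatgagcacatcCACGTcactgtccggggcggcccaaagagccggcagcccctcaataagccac
Pfkfb4, chr9:108991652-108991901, plus strand: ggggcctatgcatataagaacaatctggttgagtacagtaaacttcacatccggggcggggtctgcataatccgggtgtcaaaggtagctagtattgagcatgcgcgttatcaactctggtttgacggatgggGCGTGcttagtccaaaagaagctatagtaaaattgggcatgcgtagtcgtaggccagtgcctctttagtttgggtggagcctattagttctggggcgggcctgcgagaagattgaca
Ldha, chr7:46845554-46845803, plus strand: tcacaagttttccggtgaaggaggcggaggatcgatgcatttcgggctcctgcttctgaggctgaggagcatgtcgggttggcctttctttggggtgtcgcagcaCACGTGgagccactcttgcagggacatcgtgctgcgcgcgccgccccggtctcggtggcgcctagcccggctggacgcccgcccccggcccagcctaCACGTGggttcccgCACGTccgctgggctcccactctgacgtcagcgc
Slc16a3, chr11:120948817-120949066, plus strand: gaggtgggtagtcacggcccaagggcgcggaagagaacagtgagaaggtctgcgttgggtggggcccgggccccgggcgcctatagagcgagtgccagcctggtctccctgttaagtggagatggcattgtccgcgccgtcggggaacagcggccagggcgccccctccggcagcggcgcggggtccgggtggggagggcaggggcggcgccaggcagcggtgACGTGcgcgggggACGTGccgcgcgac
Pdk3, chrX:93832151-93832400, minus strand: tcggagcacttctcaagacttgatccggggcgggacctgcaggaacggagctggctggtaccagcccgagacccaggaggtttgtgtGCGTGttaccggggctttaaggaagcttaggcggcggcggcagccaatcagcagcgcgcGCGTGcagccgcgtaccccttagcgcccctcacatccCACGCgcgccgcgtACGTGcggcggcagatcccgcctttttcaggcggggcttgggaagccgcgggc
Fbp1, chr13:62888283-62888532, minus strand: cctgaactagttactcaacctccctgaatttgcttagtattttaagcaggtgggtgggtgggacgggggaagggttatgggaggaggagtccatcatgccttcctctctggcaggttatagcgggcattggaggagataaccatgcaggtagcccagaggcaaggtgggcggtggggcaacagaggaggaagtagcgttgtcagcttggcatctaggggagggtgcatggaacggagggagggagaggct
*Ldha* holds 5 matches in this window, which include both strands of 2 E-boxes, *Pdk3* holds 4, *Hk2* and *Slc16a3* hold 2 each, and *Pfkfb4* holds 1. A second promoter of *Ldha*, at chr7:46846832-46847081 and not shown, holds 1 match and 0 E-boxes. *Fbp1* holds 0 of these letters in this window, and so do, among the other higher genes, the promoter of *Tpi1* and 1 of 3 promoters of *Aldoa*.

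Other genes of the pathway were taken from 4 lists. Of 37 measured further genes of glucose and pyruvate metabolism, 2 rose and 1 fell, near the 7.56% and 3.24% of all genes. Their median log2 change was 0.13, against 0.08 over all genes. *Adpgk*, of an ADP-dependent glucokinase, read 7.44 and 6.89 in lal+/+ and 9.79 and 9.82 in lal-/- cells (log2 change 2.64, adjusted p = 1.77e-04 from limma). *Mpc1*, of a subunit of the mitochondrial pyruvate carrier, read 7.24 and 6.80 against 8.44 and 8.55 (log2 change 1.47, adjusted p = 9.84e-04). *Bpgm*, of the enzyme that makes the 2,3-bisphosphoglycerate of red cells, read 9.78 and 9.60 against 8.56 and 8.59 and fell by 1.12 on the log2 scale (adjusted p = 9.19e-04). Its decrease was below 2-fold at a common median (-0.53) and as deposited (-0.71).

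Of 16 measured genes of the citric acid cycle, 2 rose and 0 fell, beside 7.56% and 3.24% of all genes. The median log2 change of the 16 was 0.45. *Mdh2*, of mitochondrial malate dehydrogenase, read 9.88 and 9.64 in lal+/+ and 11.19 and 11.18 in lal-/- cells (log2 change 1.43, adjusted p = 4.36e-04 from limma). *Sdhb*, of the iron-sulfur subunit of succinate dehydrogenase, read 8.70 and 7.97 against 9.72 and 9.63 (log2 change 1.34, adjusted p = 0.00522), and 0.97 without lal+/+ replicate 2. The number of higher genes of the cycle was 4 without lal+/+ replicate 1, 1 without lal+/+ replicate 2, 6 at a common median and 5 as deposited.

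Of all genes 7.56% were higher and 3.24% lower. Shuttles that carry the electrons of cytosolic NADH into mitochondria had 4 of 9 genes higher and 0 lower (median log2 change 0.76). They were *Slc25a11*, of the malate carrier (2.18, adjusted p = 4.22e-04 from limma), *Got1* (1.84, adjusted p = 9.31e-04) and *Got2* (1.59, adjusted p = 2.55e-04), of the cytosolic and mitochondrial aspartate aminotransferases, and *Slc25a12*, of an aspartate and glutamate carrier (1.16, adjusted p = 6.88e-04). These are members of the malate-aspartate shuttle. *Mdh1*, of the cytosolic malate dehydrogenase of the same shuttle, read 9.53 and 9.81 in lal+/+ and 9.05 and 9.11 in lal-/- cells. Its lal-/- arrays were the lower ones, with a log2 change of -0.59 (adjusted p = 0.0203) that missed the fold threshold.

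Of 25 regulators and targets of HIF outside glycolysis, 6 were higher and 0 lower, beside 7.56% and 3.24% of all genes. At an adjusted p under 0.05 and any fold, 12 were higher and 1 lower, beside 19.8% and 9.85% of all genes. The list holds targets of HIF together with its regulators, so these counts give no direction for HIF itself. The median log2 change of the 25 was 0.43. The largest rises were of *Ero1a*, an oxidase of the endoplasmic reticulum (3.99-fold, adjusted p = 1.00e-04 from limma), *Egln3*, a prolyl hydroxylase that marks HIF alpha for degradation (log2 change 1.62, adjusted p = 8.82e-04), and *P4hb*, protein disulfide isomerase (1.40, adjusted p = 4.42e-04). *Ero1a* and *P4hb* are also known as folding enzymes of the endoplasmic reticulum, apart from any link to oxygen.

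**Figure D5:**
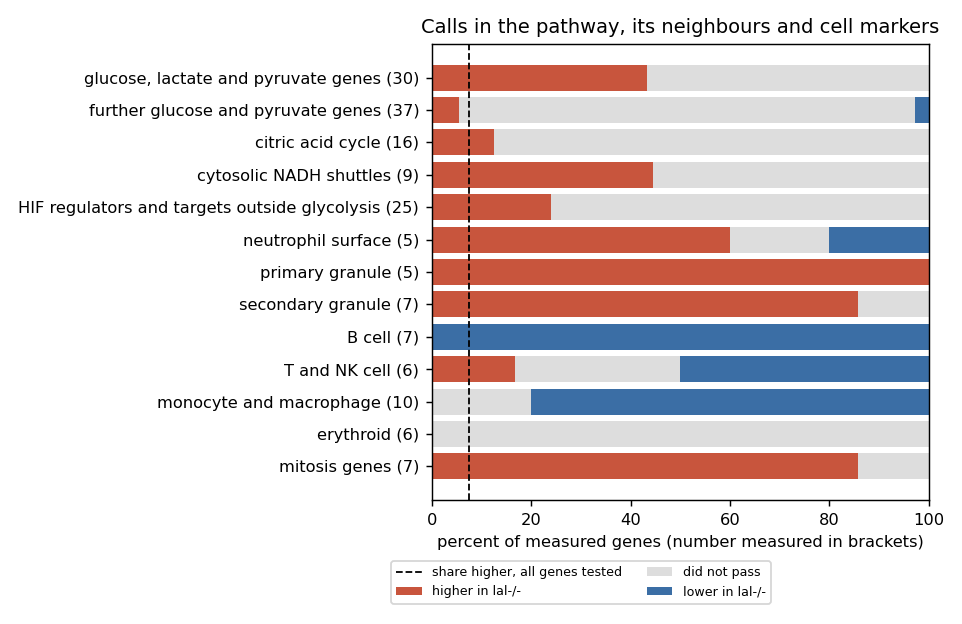
Percent of the measured genes of each list that were higher (red), lower (blue) or did not pass (grey) in lal-/- cells, with the number measured in brackets and a dashed line at the 7.56% of all genes that were higher. The glucose, lactate and pyruvate genes have 13 of 30 higher, primary granule genes 5 of 5, mitosis genes 6 of 7, and B cell genes 7 of 7 lower.

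Markers of cell type and stage moved in the same arrays, in which 7.56% of all genes were higher and 3.24% lower. Of the neutrophil surface genes 3 of 5 were higher and *Csf3r*, of the receptor for granulocyte colony-stimulating factor, was lower (log2 change -1.91). Primary granule genes, which promyelocytes express, were higher in 5 of 5, from *Elane* (2.20) to *Ctsg* (3.78), and their lal+/+ means lay within the range of silent genes. On a log2 scale their summed signal was 8.02 to 8.07 in lal+/+ and 11.42 to 11.46 in lal-/- arrays. Secondary granule genes were higher in 6 of 7 (summed signal 14.46 to 14.51 against 15.75 to 15.79), and mitosis genes in 6 of 7 (10.19 to 10.34 against 11.83 to 11.93).

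B cell genes were lower in 7 of 7 (summed signal 12.73 to 12.87 in lal+/+ against 9.01 to 9.08 in lal-/- arrays), with *Cr2* at -5.69, and monocyte and macrophage genes in 8 of 10 (12.83 to 12.94 against 10.77 to 10.79), with *Mrc1* at -4.54. T and NK cell genes were lower in 3 of 6, *Cd2* (-4.40), *Cd3g* (-2.01) and *Cd3e* (-1.28), while *Cd3d* was higher (2.42). Their summed signal was higher in lal-/- arrays (12.10 to 12.17 against 12.85 to 12.86). *Cd3d* alone read 12.74 and 12.72 in lal-/- arrays, so this sum mostly follows 1 gene and not the list. Of 6 erythroid genes 0 passed in either direction, with summed signals of 10.17 to 10.32 and 10.28 to 10.29. None of the B cell or monocyte and macrophage genes was in the range of silent genes in both genotypes. Some were in that range in lal-/- cells, among them *Cr2* (mean 4.88) and *Mrc1* (5.18), so that their falls may be understated. In these bulk preparations a different share of cell types or stages and a different amount of RNA per cell cannot be told apart, and the part of either in the changes of the glucose and lactate genes was not tested.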

How the data were processed

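RNA of bone marrow MDSCs was measured on 4 Affymetrix Mouse Gene 1.0 ST arrays, 2 for each genotype. The deposited values are log2 signals of 35557 probe sets that the authors made from the scans with RMA, which corrects the background, normalizes the arrays and summarizes the probes of a set. The methods name Partek Genomics Suite, and the labels name GCOS 1.1. No source used here gives the genome build of the array's annotation. A gene table lists 23410 probe sets, of which 21789 name 1 gene and 1621 several. Symbols of 21698 probe sets were brought up to date through gene identifiers and 91 were kept as written. 0 columns of values were left out.

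The arrays were quantile normalized, because the column medians lay further apart than a limit of 0.1. A model with genotype as its term was fitted in limma 3.58.1 under R 4.3.3, with 4.83 prior and 2 residual degrees of freedom. Adjustment by the method of Benjamini and Hochberg covered all 21789 probe sets naming 1 gene. Calls needed an adjusted p below 0.05 and at least a 2-fold change. A tissue term, part of the study's model, could not be fitted to 1 tissue. The fit was tested on simulated data. Number of arrays limits the precision. Quantile normalization holds the distribution of signals equal, so changes are relative to all genes. The deposited RMA values were not equal in this way, since their medians differed by 0.208.

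Every measured gene of the list is named, and of each neighbouring list up to 3 called genes in each direction by size, with *Slc25a12* and *Mdh1* added after their values were seen. The genes and lists were chosen with earlier results of these data known. Alternatives were a common median, the values as deposited, a filter at the median level of the probe sets (6.39), adjustment over all probe sets, an intensity trend with robust variances, a linear model without moderated variances, no fold threshold, a replicate block, a limit of 0.01 on the adjusted p, averaging over a gene's probe sets, and leaving out each array. The crossed block and the probe set with the most accessions were added after the data were seen. Promoter sequences are those of RefSeq on GRCm38.p6.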

Additional observations from a re-analysis of the deposited data

How the results depend on the processing

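Of the 13 higher genes, 0 changed direction in any of 16 other settings, and 11 passed in all of them except the linear model without moderated variances. *Slc16a3* was 0.96 without lal+/+ replicate 1, and *Ldhb* was left out by the filter at the median level. The model without moderated variances called 0 of the 30 genes, 0 of the neighbouring lists in either direction and 0 of all genes (17 of the 30, and 5691 of all genes, had an unadjusted p under 0.05). The count of higher genes was 12 to 13 with an array left out and 16 at a common median, where 2619 of all genes were higher against 1508. The neighbouring lists held 37, 16, 9 and 25 measured genes. Of these genes 14 were higher and 1 lower, beside 7.56% and 3.24% of all genes. At a common median the counts were 23 and 0, beside 13.1% and 2.34% of all genes. As deposited they were 19 and 0, beside 10.1% and 3.17%. Without the fold threshold they were 32 and 6, beside 19.8% and 9.85%. The numbers on the arrays do not pair the samples, which share only a number (correlation of same-numbered deviations -0.18). With the replicate block 13 of the 30 genes were higher and 0 lower, and 14 and 1 in the neighbouring lists. The crossed pairing gave 13 and 14 higher.

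Genes near 0 changed sign. As deposited these were *Pfkm* (-0.12), *Slc16a1* (-0.12), *Pdk2* (-0.074) and *Pdk4* (-0.16). Leaving out an array gave -0.039 to 0.20 for *Pfkm*, -0.033 to 0.046 for *Pfkp*, -0.18 to 0.036 for *Pdk1*, -0.021 to 0.22 for *Pdk2*, -0.054 to 0.26 for *Pdk4*, -0.022 to 0.10 for *Pdhb*, -0.088 to 0.44 for *Dlat* and -0.0058 to 0.18 for *Hif1a*. *Hk1* was 0.68 as the mean of its probe sets and 1.67 on the probe set with the most accessions, which turned *Hk3* minus *Hk1* to -0.46. *Ldhb* minus *Ldha* was -0.19 at a common median and as deposited. The cause of these changes was not tested. Signal over background limits *Hk2*, *Pfkl*, *Aldoc*, *Ldhb* and *Fbp1* in lal+/+ cells, and *Pfkm*, *Slc16a1*, *Pdk1*, *Pdk2* and *Pdk4* in both genotypes. *Pdk3* was close to this limit in lal+/+ cells.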
